A study of Mus musculus with 6 samples.

Results

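The 10 NRF2 antioxidant defence genes described here are Nqo1, Hmox1, Gclc, Gclm, Txnrd1, Srxn1, Gsr, Ugdh, Sod1 and Sod2, chosen as every array probe that carries one of these gene names. All 10 were found among the 28786 gene names on the array, by 16 of its 41174 probes. Srxn1, Gsr and Sod1 have 3 probes each and the other genes 1 each. Where a gene has several probes, the probe with the highest mean signal is given first and stands for the gene in counts and medians.

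Liver RNA came from male 129/Sv mice that were 6 to 8 weeks old when treatment began. The treated animals had free access to a Lieber-DeCarli liquid diet with 4% ethanol for 1, 2 or 4 months, and the controls to an isocaloric liquid diet with maltose dextran for the same time, after all mice had been preconditioned on the control diet. At each time the RNA of 6 mice per diet was combined in equal amounts into 1 pool, which gave 6 pools in all. The alcohol and control pools of a month were hybridized together on 2 two-color arrays with the dyes exchanged, which gave 6 arrays. The 2 arrays of a month hold the same RNA, so they are 1 replicate and their SD is technical. Pooling leaves no measure of the spread between mice, and no test is possible within a month. Judged by the slide numbers in the names of the scanner output, the only source for it here, the 1-month arrays share a slide and a different slide carries the later 4 arrays. Between 73.3% and 90.3% of the spots of a channel were well above background, and none of the 16 probes was saturated.

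NRF2, encoded by Nfe2l2, is a transcription factor that KEAP1 normally marks for degradation. Electrophiles and oxidants modify KEAP1, NRF2 then accumulates, pairs with small MAF proteins and binds antioxidant response elements in the DNA of genes for glutathione synthesis, thioredoxin recycling, quinone reduction and heme breakdown. In liver, ethanol is oxidized by alcohol dehydrogenase and by the cytochrome P450 CYP2E1, and the latter generates reactive oxygen species. The gene of a cytosolic superoxide dismutase, Sod1, and that of the mitochondrial enzyme, Sod2, belong to the same defence but are less strictly tied to NRF2.

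Among the 10 genes, only Nqo1 lay above the control pool on all 6 arrays at its first-named probe, by 1.53- to 1.73-fold in the averages of the 3 months. Its probe was dim, and both pools were well above background on only 5 of the 6 arrays. The 1-month average includes the array where they were not. Hmox1 was at 1.02- and 1.06-fold of the control at 1 and 2 months and 1.55-fold at 4 months. The other 8 genes stayed between 0.888- and 1.18-fold of the control in every monthly average of their first-named probe. No gene of the set reached 2-fold at any time, and none passed the test over the months after adjustment for all probes.

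The region upstream of the transcription start is shown for 2 of the genes, Nqo1 because it lay above the control on every array, and Ugdh because it is the member whose window holds the most copies of the core of the antioxidant response element. The search was for TGACNNNGC on both strands in the 250 bases before each start in RefSeq, and matches are in capitals. The Nqo1 window is chr8:107403206-107403455 and the Ugdh window is chr5:65435843-65436092, both on the minus strand of GRCm38.p6 and written 5′ to 3′ toward the gene.
Nqo1: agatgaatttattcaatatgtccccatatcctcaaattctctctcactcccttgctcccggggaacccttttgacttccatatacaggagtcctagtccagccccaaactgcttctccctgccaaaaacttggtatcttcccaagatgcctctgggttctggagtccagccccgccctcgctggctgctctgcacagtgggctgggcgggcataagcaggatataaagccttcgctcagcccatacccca
Ugdh: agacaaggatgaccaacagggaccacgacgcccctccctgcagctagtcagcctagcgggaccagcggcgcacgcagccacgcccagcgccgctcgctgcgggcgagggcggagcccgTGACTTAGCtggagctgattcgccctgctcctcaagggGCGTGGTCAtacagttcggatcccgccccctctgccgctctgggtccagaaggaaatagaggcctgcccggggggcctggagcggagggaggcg
The Ugdh window holds 1 match on the gene's strand, 132 bases before the start, and 1 on the opposite strand, 94 bases before it. The Nqo1 window holds none, which says only that these letters are not in these 250 bases. Of the 10 genes, 7 were matched in the promoter table, with 9 windows, and 4 of these windows, those of Gclm, Ugdh, Sod1 and 1 of the 3 of Txnrd1, hold the motif, against 10.2% of all 32851 windows in the table. The windows of Srxn1 and Sod2 hold none. Such a match is a description of letters and was not tested as a binding site.

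Nqo1 encodes NAD(P)H quinone dehydrogenase 1, which reduces quinones in a single step and so keeps them from redox cycling. At 1 month its log2 ratio of alcohol over control was 0.79 on the array with the alcohol pool in Cy5 and 0.68 on the array with the dyes exchanged, a mean of 0.74 ± 0.08 (SD, 2 arrays). At 2 months the arrays gave 0.63 and 0.59, a mean of 0.61 ± 0.03. At 4 months they gave 0.66 and 0.92, a mean of 0.79 ± 0.19. On the 5 arrays where both pools were well above background the values lie at or above 1.5-fold. Those of 2 months were the lowest, so there was no steady rise or fall over the months. The sixth, the 0.68 at 1 month, is a ratio of signals not well above background and so not a measured fold. Among all 37922 probes tested, whatever their signal, 1.49% lay above 0 on each of the 6 arrays, as did 1 of the 10 genes. Of the 16 probes, 3 lay above 0 on each array, that of Nqo1 and 2 of Srxn1.

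The Nqo1 probe was dim. At 1 month it was well above background in each pool on 1 of the 2 arrays, that with the alcohol pool in Cy5, where its processed signal was 458 for alcohol and 265 for control. On the other array of that month the signals were 73.7 and 45.9, not well above background, and the ratio there is the 0.68 given above. At 2 and 4 months each pool passed the background limit on each array. Counted from the 75th percentile of its channel on the log2 scale, Nqo1 stood at -2.54 in the alcohol pool and -3.28 in the control pool after 1 month, at -2.96 against -3.56 after 2 months, and at -2.60 against -3.39 after 4 months. The 1-month means rest on arrays far apart, with -1.27 and -3.82 for alcohol and -2.06 and -4.51 for control, so that the pools overlap across arrays. The alcohol pool was the higher on each array. At 2 and 4 months, whose arrays share a slide, the single-array levels ran from -3.01 to -2.53 in the alcohol pools and from -3.59 to -3.19 in the control pools. Each of these pools was read on 2 arrays, and how many other probes have levels apart in this way was not counted.

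Over the 3 months as replicates, limma estimated an alcohol effect of 0.71 on the log2 scale for Nqo1 (SE 0.07, n = 3 monthly values), which is 1.64-fold with a 95% interval of 1.45 to 1.85. This estimate was higher than that of 99.8% of the probes tested, but its adjusted p was 0.406 and it did not pass. The limma slope on the log2 of the month was 0.03 per doubling of the time (SE 0.09, adjusted p = 0.986). Since the 3 pairs of pools are the replicates, this test measures the spread between months, not between mice. No probe at all passed the test of the effect, 0% of 37922, where the smallest limma adjusted p was 0.106 and 3028 probes had an unadjusted p below 0.05. Likewise 0% passed the test of the trend, with 2813 probes below 0.05 before adjustment and a smallest adjusted p of 0.616. Without moderation the methods' t-test gave 0 probes for the effect and 1 for the trend after adjustment, and 2247 and 2119 before it. At the first-named probes, 1 of the 10 genes, Nqo1, was below 0.05 before adjustment for the effect, and 1, Hmox1, for the trend. Over all 16 probes it was 2 for the effect, with the dimmest Srxn1 probe, and 1 for the trend.

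**Figure D1:**
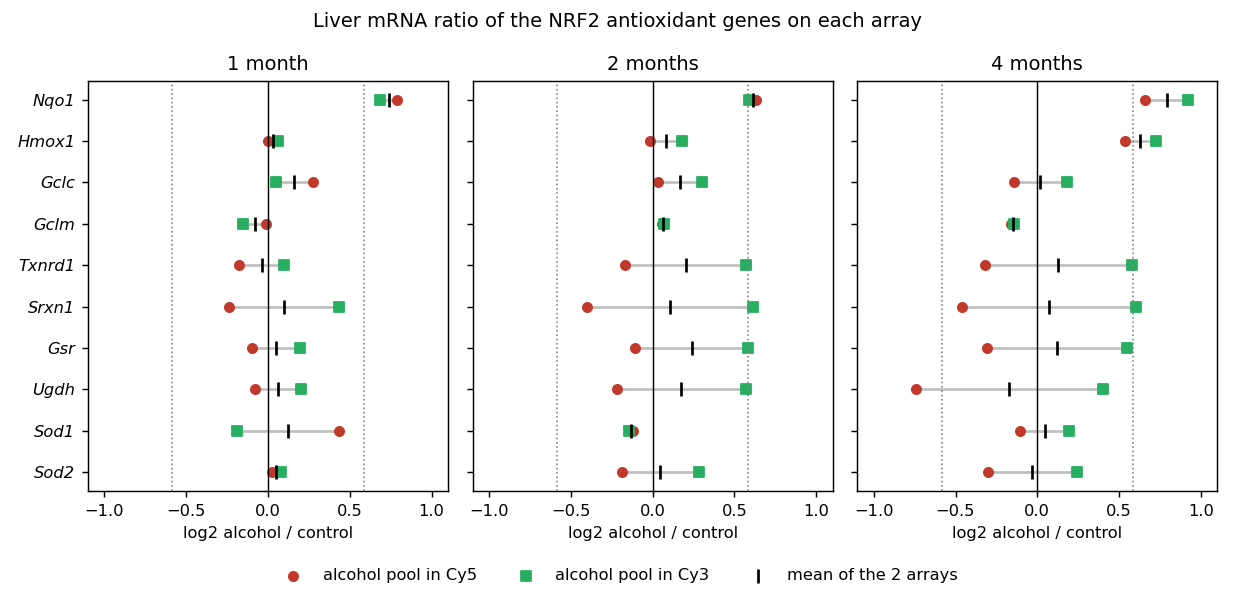
Log2 ratio of alcohol over control (x axis) for the 10 genes at 1, 2 and 4 months, with 1 circle for the array with the alcohol pool in Cy5, 1 square for the array with it in Cy3 and a bar for their mean. Dotted lines mark 1.5-fold. Nqo1 lies beyond the right line on all 6 arrays, of which 5 had both pools well above background, Hmox1 moves there at 4 months on average (0.63), and most other genes lie left of 0 on one array of a pair and right of it on the other.

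Hmox1 encodes heme oxygenase 1, the inducible enzyme that splits heme into biliverdin, carbon monoxide and iron, and which is strong in macrophages that clear red cells as well as in stressed hepatocytes. Its log2 ratio was 0.00 and 0.06 on the arrays of 1 month, a mean of 0.03 ± 0.04. At 2 months it was -0.01 and 0.18, a mean of 0.08 ± 0.14. At 4 months it was 0.53 and 0.73, a mean of 0.63 ± 0.14, or 1.55-fold. The 4-month arrays thus lie apart from the 4 earlier ones, whose highest value was 0.18. The probe was bright and passed the background limit in each pool on every array.

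The levels place this difference in the alcohol pool of the last month. The log2 level of Hmox1 in the control pools of 1, 2 and 4 months was 1.23, 1.07 and 1.23, and in the alcohol pools 1.26, 1.14 and 1.87. Between 2 and 4 months, on arrays of 1 slide, the alcohol pool was higher by 0.72 and the control pool by 0.17. The limma slope was 0.30 per doubling of the time (SE 0.11, 95% interval 0.01 to 0.59), with an adjusted p of 0.669, and the effect over the months was 0.25 (SE 0.14, 95% interval -0.11 to 0.60, adjusted p = 0.669). Neither passed.

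Markers of other cells of the liver were measured in the same pools. At 4 months, 4 of the 7 Kupffer cell and macrophage genes lay above 0, against 47.5% of tested probes, with a range of -0.09 to 0.40 and a median of 0.04. The log2 of their summed level was 5.42 in the alcohol pool and 5.40 in the control pool. Over the 3 months that sum was 4.73 to 5.42 in the alcohol pools and 4.63 to 5.40 in the control pools, and no macrophage marker was below background on both arrays of a pool. At 1 month all 7 were above 0, against 47.8% of tested probes, with a median of 0.23 and 1.23 for Adgre1, and Hmox1 was at 0.03. Of the 3 erythroid genes at 4 months, Hba-a1 and Hbb-b1, which encode globin chains, were at 0.61 and 0.63, and Alas2, the first enzyme of heme synthesis in red cell precursors, was at -2.00. At 1 month Hba-a1 and Hbb-b1 were at 1.51 and 1.97, and Alas2 was at 0.05. At 4 months all 6 measured markers of pancreatic acinar cells were also above 0, against 47.5% of tested probes, with a median of 0.77 and a highest value of 2.17 for Cpb1. The log2 of their summed level was 4.05 in the alcohol pool and 3.69 in the control pool. Markers of endothelium, stellate cells, bile duct and lymphocytes had medians of 0.05, 0.18, 0.03 and 0.02 at that time, though the summed stellate level in the alcohol pool minus that in the control pool was -0.19. At 1 month the averages of all 4 endothelial markers were above 0, against 47.8% of tested probes, and each marker was above 0 on both arrays. Their median was 0.36 and the highest value 0.59, and the log2 of their summed level was 1.71 in the alcohol pool and 1.38 in the control pool. The part of these cells in the values of Hmox1, Nqo1 and the other genes at either time was not tested, and in pooled tissue RNA a change in the number of cells and a change in RNA per cell cannot be told apart. The 4 hepatocyte markers with a probe were well above background in every pool. Their medians were 0.12, -0.14 and 0.03 at the 3 times. At 4 months Alb, Fgb, Apoa1 and Ttr, which encode plasma proteins, were at 0.59, 0.11, -0.05 and -0.22, and the log2 of their summed level was 5.81 in the alcohol pool and 5.58 in the control pool. At 1 month the sum of the alcohol pool minus that of the control pool was -0.19, with Ttr at 0.34, Alb at 0.31, Fgb at -0.07 and Apoa1 at -0.61, the last from arrays at 0.26 and -1.47. At 2 months the difference of the sums was -0.07.

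**Figure D2:**
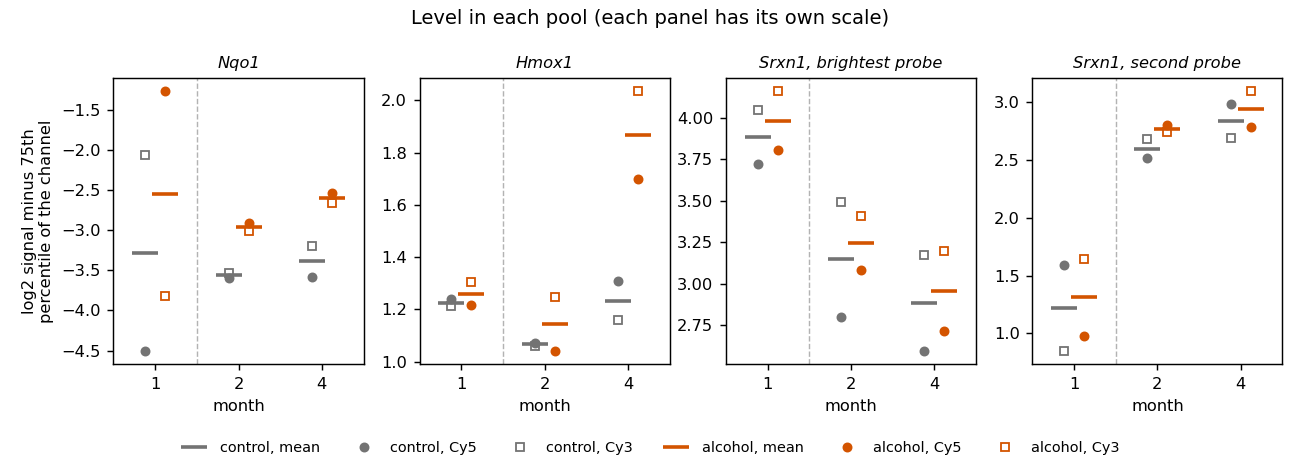
Level of Nqo1, Hmox1 and the first and second probe of Srxn1 in each pool, as log2 signal minus the 75th percentile of the channel (y axis, own scale in each panel) against month (x axis), with control in gray and alcohol in orange. Filled circles are Cy5, open squares Cy3 and bars the mean of the 2 arrays, and the dashed line separates the slide of 1 month from that of 2 and 4 months. Hmox1 at 4 months is the point where the alcohol pool (1.87) leaves the other 5 pools (1.07 to 1.26).

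Gclc and Gclm encode the catalytic and the modifier subunit of glutamate cysteine ligase, the first and rate-limiting step of glutathione synthesis. In the pairs of values from here on, the array with the alcohol pool in Cy5 comes first. Gclc gave log2 ratios of 0.28 with 0.05 at 1 month, 0.04 with 0.30 at 2 months and, at the last time, -0.14 with 0.18. It was therefore above 0 on 5 of 6 arrays, with means of 0.16 ± 0.16, 0.17 ± 0.19 and 0.02 ± 0.23, none of them clearly larger than the SD of its pair. Gclm gave -0.01 and -0.15 after 1 month, 0.06 and 0.07 after 2 months and -0.16 and -0.14 after 4 months. The 2 arrays of each month had the same sign for Gclm, which was above the control only at 2 months. The limma effects were 0.12 for Gclc (SE 0.07, adjusted p = 0.675) and -0.06 for Gclm (SE 0.07, adjusted p = 0.850), and the 95% intervals hold both genes between 0.847- and 1.22-fold of the control.

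Gsr encodes glutathione reductase, which returns oxidized glutathione to its reduced form at the cost of NADPH. Its 3 probes gave monthly means between -0.06 and 0.25, and in each case the lowest was at 1 month and the highest at 2 months. On the brightest probe the arrays gave -0.10 with 0.20 for the first month, -0.11 with 0.59 for the second and -0.31 with 0.55 after 4 months. The array with the alcohol pool in Cy3 was the higher of each pair, with SDs of 0.21 to 0.61 against means of 0.05 to 0.24. The dimmest probe gave 0.08 with -0.21 for the first month, which are on either side of 0, then 0.24 with 0.26 after 2 months and 0.11 with 0.13 after 4 months. The limma effects of the 3 probes were 0.06 to 0.13 with adjusted p-values of 0.649 to 0.823.

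Txnrd1 encodes cytosolic thioredoxin reductase, and Srxn1 encodes sulfiredoxin, which repairs overoxidized peroxiredoxins. Txnrd1 gave -0.18 with 0.10 at 1 month, -0.17 with 0.57 at 2 months and, at the last time, -0.32 with 0.58, so that the sign turned with the dye in each month and the means of -0.04, 0.20 and 0.13 are within their SDs of 0.20, 0.52 and 0.63. The limma effect was 0.10 (SE 0.07, adjusted p = 0.743).

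The 3 probes of Srxn1 did not give a single answer. The brightest gave -0.24 and 0.43 after 1 month, -0.40 and 0.61 after 2 months and -0.46 and 0.60 after 4 months, with means of 0.10, 0.10 and 0.07. Its sign turned with the dye every time, and the SDs of 0.48 to 0.75 exceed the means. The second probe gave 0.13 and 0.05, then 0.13 and 0.23, then 0.09 and 0.11, all 6 above 0, with means of 0.09 ± 0.06, 0.18 ± 0.07 and 0.10 ± 0.01. The dimmest probe, which still passed the background limit in each channel of the 6 arrays, gave 0.61 and 0.18, then 0.64 and 0.92, then 0.38 and 0.73. These values are also all above 0, with means of 0.40 ± 0.30, 0.78 ± 0.19 and 0.56 ± 0.25, which at 2 months is 1.72-fold.

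The limma effects were 0.09 for the brightest Srxn1 probe (SE 0.06, adjusted p = 0.707), 0.12 for the second (SE 0.06, adjusted p = 0.640) and 0.58 for the dimmest (SE 0.09, adjusted p = 0.601). The 95% interval of the dimmest, 0.34 to 0.82, does not overlap that of the other two, which end at 0.24 and 0.28. None passed. The level of these probes also moved differently between the slides, since in the control pools the brightest was at 3.88 at 1 month and 2.88 at 4 months while the second was at 1.22 and 2.84, and slide and month cannot be told apart there. Probe sequences were not used here, so which transcript each probe reads was not examined.

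**Figure D3:**
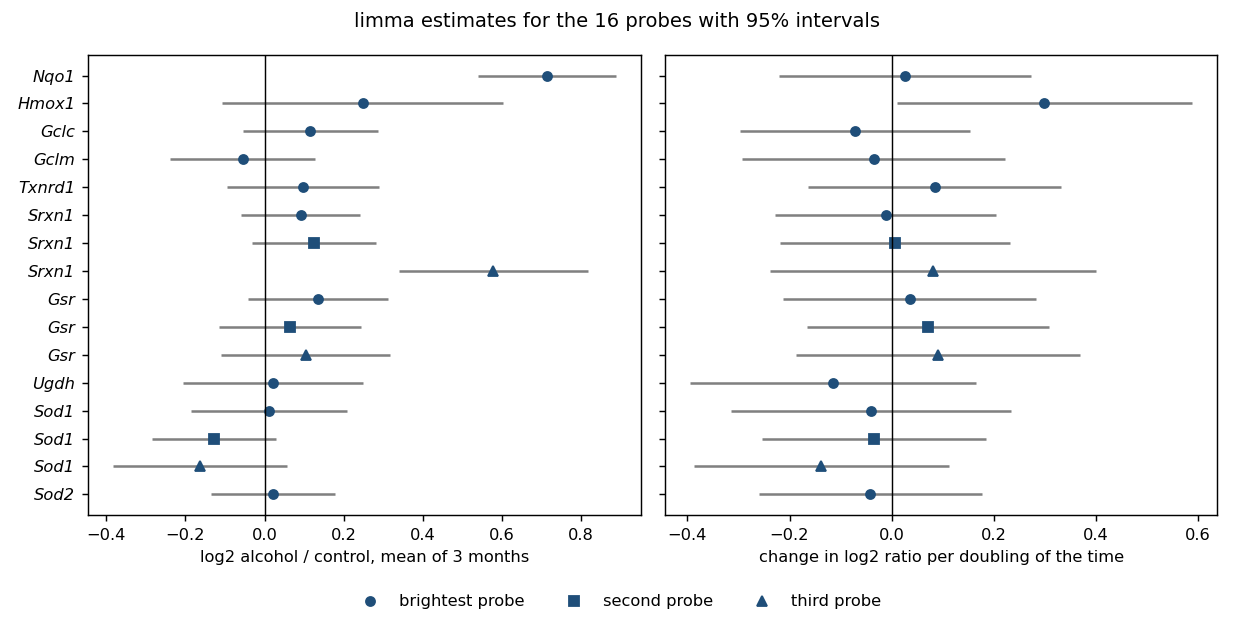
limma estimates (points) with 95% intervals (lines) for the 16 probes, with the mean log2 ratio over the 3 months on the left and the change in log2 ratio per doubling of the time on the right. The intervals of Nqo1 (0.54 to 0.89) and of the dimmest Srxn1 probe, a triangle at 0.58, lie right of 0 on the left, and that of Hmox1 (0.01 to 0.59) on the right, none of them with an adjusted p that passes.

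Ugdh encodes UDP-glucose dehydrogenase, which makes the UDP-glucuronic acid that conjugating enzymes attach to drugs and bilirubin. Its arrays gave -0.08 with 0.20 for the first month, -0.22 with 0.57 for the second and -0.74 with 0.40 after 4 months. The means of 0.06, 0.17 and -0.17 have SDs of 0.20, 0.56 and 0.81, the widest at 4 months among the first-named probes of the set. The limma effect was 0.02 (SE 0.09, 95% interval -0.21 to 0.25, adjusted p = 0.961).

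Sod1 and Sod2 turn superoxide into hydrogen peroxide, in the cytosol and in mitochondria. The brightest Sod1 probe gave 0.44 with -0.19 at 1 month, -0.12 with -0.15 at 2 months and, at the last time, -0.10 with 0.19, with means of 0.12, -0.13 and 0.04. The other Sod1 probes were dim, with monthly means of -0.35 to -0.06, all below 0, and with the 4-month level of one of them well above background on only 1 of 2 arrays in each pool. Sod2 gave 0.02 and 0.08, then -0.19 and 0.28, then -0.30 and 0.24, with means of 0.05, 0.05 and -0.03. The limma effects were 0.01 for the brightest Sod1 probe (95% interval -0.19 to 0.21, adjusted p = 0.974) and 0.02 for Sod2 (95% interval -0.13 to 0.18, adjusted p = 0.935). The intervals of the other Sod1 probes were 0.822- to 1.02-fold and 0.767- to 1.04-fold of the control, against 0.880- to 1.16-fold for the brightest.

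Counted over the set, 0 of 10 genes reached 2-fold in either direction at 1, 2 or 4 months, where 0.253%, 0.425% and 0.802% of the tested probes did. At 1.5-fold, 1 gene lay above the control at 1 month (Nqo1, against 0.609% of tested probes), 1 at 2 months (Nqo1, against 1.39%) and 2 at 4 months (Nqo1 and Hmox1, against 2.52%). With normexp and loess, a different background correction and normalization, Nqo1 was at 0.50 at 2 months and 0 genes remained past 1.5-fold there. None lay 1.5-fold below it, where 0.649%, 1.47% and 1.61% of tested probes did. The median log2 ratio of the 10 genes at the 3 times was 0.06, 0.14 and 0.06, and that of the tested probes was 0.00, 0.01 and -0.01. Above 0 were 8, 9 and 7 of the 10, against 47.8%, 52.3% and 47.5% of tested probes.

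The median on a single array differed with the dye that the alcohol pool carried. On the arrays with the alcohol pool in Cy5 the median of the 10 genes was 0.00, -0.11 and -0.23 at 1, 2 and 4 months, and on the arrays with it in Cy3 it was 0.09, 0.43 and 0.47. The ratio was the higher on the Cy3 array for 6, 8 and 10 of the 10 genes, against 50.1%, 52.6% and 51.6% of tested probes. The sign was opposite on the arrays of a pair for 5, 6 and 7 genes, against 48.0%, 61.8% and 65.7% of tested probes. Averaging over the pair cancels a constant dye effect, and for Nqo1, Hmox1 at 4 months and the second and the dimmest Srxn1 probe the direction was the same on both arrays of each pair. It was also the same in each pair for Gclm, which lay below the control at 1 and 4 months and above it at 2 months.

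Beyond the 10 genes, 7 lists of NRF2 regulators and redox genes were read in the same way, with 68 genes in all, of which 67 have a probe and 57 are not among the 10. By limma 0 of the 67 passed for the effect. At 1.5-fold, 3 of the 67 lay above the control at 1 month (Nqo1, Gsta2 and Sod3), 2 at 2 months (Nqo1 and Gsta2) and 8 at 4 months (Nqo1, Hmox1, Gsta2, Cbr1, Abcc3, Ptgr1, Ggt1 and Txnip), against 0.609%, 1.39% and 2.52% of tested probes. The Ggt1 control pool at 4 months was not well above background on either array, and the alcohol pool on only 1 of 2, so its ratio there is not a measured fold. Among genes whose pools were both well above background on at least 1 array of the month, a limit chosen after the data were seen, 3 of 65, 2 of 66 and 7 of 66 lay above the control by 1.5-fold, against 0.416%, 0.653% and 1.72% of such probes. Over all 67, below the control by 1.5-fold lay Me1 and Osgin1 at 1 month, Osgin1 at 2 months, and Nfe2l2 and Osgin1 at 4 months, against 0.649%, 1.47% and 1.61%. Above 0 on all 6 arrays were 5 of the 57, all in the list of conjugation, reduction and export, and 1 was below 0 on all 6, against 1.49% and 2.38% of tested probes.

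The regulators as a list had medians of -0.03, 0.03 and -0.06 over the 3 times. Nfe2l2, the gene of NRF2 itself, had the largest mean difference among them, with 0.01 and -0.11 after 1 month, -0.74 and -0.04 after 2 months and -0.91 and -0.34 after 4 months on its brightest probe. The monthly means were -0.05, -0.39 and -0.62, and all 4 probes of Nfe2l2 were between -0.72 and -0.54 at 4 months. The limma effects of the 4 probes were -0.42 to -0.18 with adjusted p-values of 0.620 to 0.775, so none passed. Keap1, the gene of its inhibitor, was at 0.10, 0.24 and -0.04.

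In the list of NRF2-responsive conjugation, reduction and export, 15, 16 and 14 of 18 genes lay above 0 at 1, 2 and 4 months, with medians of 0.14, 0.21 and 0.30, against 47.8%, 52.3% and 47.5% of tested probes above 0. The sign was opposite on the arrays of a pair for 4, 7 and 8 of these 18, against 48.0%, 61.8% and 65.7% of tested probes. Gsta2, an alpha class glutathione S-transferase, had the highest mean ratio there, from 1.71 with 1.41 for the first month, 0.98 with 0.70 for the second and 1.02 with 0.59 after 4 months. It was the 1 gene of the 67 past 2-fold at 1 month, at 2.95-fold, and its limma effect was 1.07 (SE 0.17, adjusted p = 0.601). Gsta2 has near-identical relatives, and the probe named for Gsta1 gave 0.42, 0.09 and 0.13, so which of these transcripts each probe reads is uncertain. Ptgr1, a prostaglandin reductase that uses NADPH, was past 2-fold at 4 months at 1.05 on the log2 scale, was at -0.08 at 2 months, and at 1 month neither pool passed the background limit. Apart from Nqo1, the genes above 0 on all 6 arrays were Gsta2, Gsta4, Cbr1, Abcc3 and Abcc4, of which the last 2 encode export pumps. Osgin1, an oxidative stress induced growth inhibitor singled out after its values were seen, was the gene below 0 on all 6, with means of -0.66, -0.63 and -0.71 and a limma effect of -0.67 (SE 0.06, adjusted p = 0.346), and its second probe gave an effect of -0.55.

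The list of heme and iron genes had medians of -0.01, 0.05 and 0.26. At 4 months the averages of all 6 of its genes were above 0, against 47.5% of tested probes. The signs on the arrays of that pair were opposite for 4 of the 6, against 65.7% of tested probes. Hmox1 had the largest mean difference there, as described. Among the genes of glutathione synthesis and peroxidases, with medians of 0.05, 0.07 and 0.12, it was the glutaredoxin gene Glrx among the probes well above background throughout, at 0.07, 0.36 and 0.21. Thioredoxin and peroxiredoxin genes had medians of 0.03, -0.06 and 0.03. Txnip, whose product binds thioredoxin and holds it inactive, led that list at 0.03, -0.02 and 0.72. The list of superoxide and peroxide removal had medians of 0.13, -0.16 and 0.01, with Sod2 the largest mean of its 4 genes at 0.02. Sod3, the secreted superoxide dismutase, was at 0.60 at 1 month but at -0.29 and -0.33 at 2 and 4 months, below 0 on each of those 4 arrays. The genes of NADPH supply had medians of -0.06, -0.04 and 0.04, where the malic enzyme gene Me1 was at -0.93, 0.16 and -0.53.

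**Figure D4:**
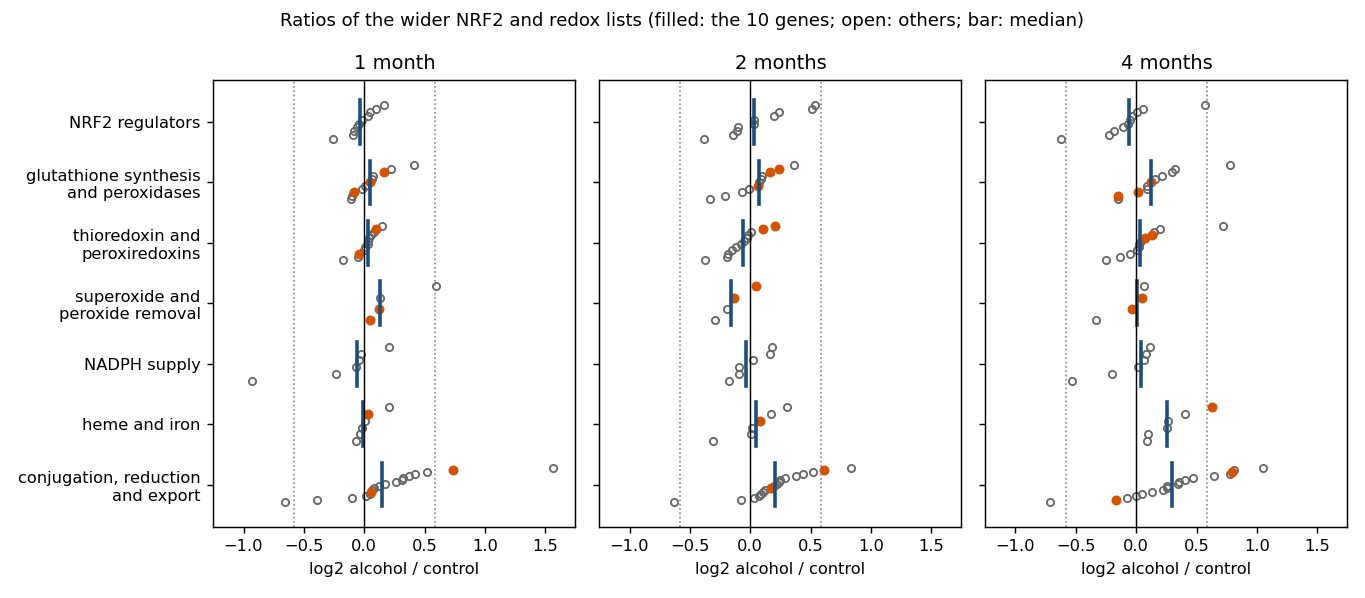
Log2 ratio of alcohol over control, averaged over the 2 arrays of a month (x axis), for the genes of the 7 lists (y axis) at 1, 2 and 4 months, with filled points for the 10 genes, open points for the others, a bar for each list's median and dotted lines at 1.5-fold. The median of the conjugation, reduction and export list lies right of 0 at each time (0.14, 0.21 and 0.30), and that of the heme and iron list does at 4 months (0.26).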

How the data were processed

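Two-color whole-genome mouse oligo arrays were scanned and read by the authors with Agilent Feature Extraction 9.1.1.1. The deposited files give the intensity of each channel after background subtraction and dye normalization by the authors, and a log10 ratio of Cy5 over Cy3 for each of 45018 spots. The authors also deposited a table of log10 ratios, already turned to alcohol over control, which lay within 0.02 log2 of the scanner values for all 40929 probes with 1 spot.

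Ratios were converted to log2 alcohol over control by the dyes in the labels, spots of a probe were averaged, 1639 control spots were left out, and the dye-swap pair was averaged. Levels are the log2 processed intensity minus the 75th percentile of the channel, and these levels are read within a probe. A probe entered the tests if any channel of any array was well above background (37922 probes). limma 3.58.1 in R 4.3.3 tested the 3 monthly values against 0, and their slope on the log2 of the month, with Benjamini-Hochberg adjustment at 0.05 over all tested probes. The steps were tested on simulated data. Wider lists used symbols matched through the RefSeq accession to a GRCm38.p6 gene table (22951 probes). Genes named from them are those past 2-fold at any month and, per list, the one with the largest absolute mean among probes well above background throughout; all other genes of the lists that are named, such as those of a count, Keap1 and Gsta1, were chosen after their values were seen.

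The members and lists were chosen with earlier results of these data known. Other settings tried were median centring, loess after normexp correction with an offset of 50, the table of deposited ratios, the mean over probes and single arrays. Further ones were other thresholds and filters, leaving out each month, slide as a block, a linear time scale and a t-test without moderation. The pathway and cluster analyses of the study were not repeated. The number of arrays limits the precision. Tables and figures used Python 3.11.15, numpy 2.4.6, pandas 2.3.3 and matplotlib 3.10.9.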

Additional observations from a re-analysis of the deposited data

Results flagged for a closer look

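Gclm was flagged because both arrays of 2 months lay on the opposite side of 0 from both arrays of each neighbouring time. The 1-month array with the alcohol pool in Cy5 was close to 0, at -0.01, and how many other probes share this pattern was not counted. The difference of its averaged log2 ratio was 0.145 between 2 months and 1 month and -0.215 between 4 months and 2 months. These differences were not tested, since each month has 1 pair of pools.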

How the results depend on the processing

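In every setting run, 0 of the 10 genes passed limma for the effect or the trend, and 0 reached 2-fold, also with either array of a month left out. With the threshold at 1.5-fold, 1, 1 and 2 genes lay above the control at 1, 2 and 4 months and 0 below, but at 2 months it was 0 with normexp and loess and 1 or 3 on a single array, and at 4 months a single array gave 1 above with 1 below, or 3 above. With either array of a pair left out, the median of the 10 genes ran from -0.0038 to 0.090 at 1 month, from -0.11 to 0.43 at 2 months and from -0.23 to 0.47 at 4 months, so its sign at each time rests on averaging the pair. Leaving out each month in turn gave 0 genes for the effect each time. The Nqo1 effect ran from 0.63 to 0.76 with limma adjusted p from 0.111 (normexp and loess) to 0.962 (without 4 months), and its probe is lost to the filter that asks for signal well above background throughout. At 2 months the Nqo1 ratio was 0.50 with normexp and loess, under 1.5-fold. As the mean over its probes, the Sod1 ratio turned from 0.12 to -0.02 at 1 month and from 0.04 to -0.16 at 4 months, and was -0.09 at 2 months. Gsr turned from 0.05 to -0.02 at 1 month. Srxn1 went from 0.10, 0.10 and 0.07 at the 3 times to 0.19, 0.35 and 0.24. The Hmox1 effect was 0.06 without 4 months and 0.36 without 1 month. The Srxn1 effect was 0.26 as the mean over its 3 probes. Effects near 0 changed sign for Sod1 in 3 settings and for Ugdh in 1, as did the Srxn1 trend in 1.

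Over all probes, limma called 9 for the effect and 50 for the trend with normexp and loess, and 6 for the effect among probes well above background throughout, none of them of the 10 genes. The cause was not tested. Each ratio already pairs the alcohol and control pool of a month on 1 array, and the labels give no numbers that would link pools of different months as a further block. With 3 monthly values and 1 pool per group and month, the spread between mice is not measured, and dim probes such as that of Nqo1 carry the least signal over background.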
